A study of Homo sapiens with 16 samples.

Results

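LIN28B, the high mobility group A genes HMGA1 and HMGA2, the IGF2 mRNA-binding genes IGF2BP1, IGF2BP2 and IGF2BP3, the ribonuclease gene DICER1 and the ubiquitin ligase gene TRIM71 were followed by RNA-seq. The cells were SK-N-BE(2)C, a MYCN-amplified human neuroblastoma line of the adrenergic type. The 8 genes were chosen by symbol and by no threshold on their values, with earlier results of these data known, and each had its own row among the 27037 genes of the count table. The 16 libraries fell into 4 groups of 4: vehicle (DMSO), 10 µM retinoic acid (RA), 1 µM palbociclib (PB, which inhibits CDK4 and CDK6, the kinases that start the cell cycle), and 1 µM palbociclib with 10 µM retinoic acid (PB+RA), each for 5 days. All cells came from this 1 line. The treatment time is taken from the study's methods, which define biological replicates as different passages of a line plated on separate occasions. The comparisons asked what each drug, and the pair, did to RNA levels after this time.

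LIN28B binds the precursors of the let-7 microRNAs and blocks their maturation, and let-7 in turn represses LIN28B, so that the pair forms a double-negative loop that separates early, proliferative states from differentiated ones. HMGA1, HMGA2, the IGF2BP genes, TRIM71 and DICER1 are all classical let-7 targets. Most of them are high in the embryo, low in most adult tissues and high again in many tumours, and LIN28B is a known driver of high-risk neuroblastoma, where it is linked to low let-7 and high MYCN protein.

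The let-7 family shares a seed, the stretch of the microRNA that pairs with its targets. In 4 of the 9 family members, taken from RefSeq and shown because every match described here was made to their common seed, bases 2 to 8 stand in capitals.
hsa-let-7a-5p: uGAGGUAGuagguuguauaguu
hsa-let-7c-5p: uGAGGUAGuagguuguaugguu
hsa-let-7e-5p: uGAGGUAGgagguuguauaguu
hsa-miR-98-5p: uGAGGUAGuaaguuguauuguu

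The 3′ UTR of each gene, taken from its MANE Select transcript on GRCh37, was searched on the transcribed strand for CTACCTC, the complement of that seed, and for the 8-base form CTACCTCA, which contains it. TRIM71 held 6 matches, of which 4 had the 8-base form, in a 3′ UTR of 6013 bases. LIN28B held 4 in 4549 bases, IGF2BP1 held 4 in 6701 bases and HMGA2 held 4 in 2999 bases. HMGA1, IGF2BP2 and IGF2BP3 held 1 each. The 3′ UTR of DICER1 held 0 in 4270 bases, and its 5766 bases of coding sequence held 4. The other 7-base form, TACCTCA without the C before it, was counted apart and is not in these totals. The 3′ UTR of HMGA2 held 3 of these, DICER1, IGF2BP2 and TRIM71 held 2 each, LIN28B and IGF2BP1 held 1 each, and HMGA1 and IGF2BP3 held 0. Among 18645 genes with a 3′ UTR, 9.86% held the 7-base match and 3.8% the 8-base match, and among genes with a 3′ UTR of a length like LIN28B's, 23.5% held the 7-base match. That share was 29.4% at the length of TRIM71, 32.4% at IGF2BP1, 14.8% at HMGA2 and 8.79% at HMGA1. These are shares with any match. The shares with at least as many matches as the gene itself were 0.187% for LIN28B, 0.103% for TRIM71, 0.517% for IGF2BP1 and 0.0847% for HMGA2. For HMGA1, IGF2BP2 and IGF2BP3 they were 8.79%, 13.2% and 12.1%. The genes are known let-7 targets, so these shares are descriptions and no test. A match is a description of the letters and not a measured site.

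The match nearest the stop codon in 6 of the genes is shown in the sense of the transcript, with the matched bases in capitals, because these are the letters through which let-7 would pair with the genes whose levels follow.
LIN28B, chr6:105526688-105526709, plus strand: cccggttgcaaagtCTACCTCA
HMGA1, chr6:34213607-34213627, plus strand: cctctgttcacaaaCTACCTC
HMGA2, chr12:66357079-66357100, plus strand: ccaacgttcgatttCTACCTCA
IGF2BP1, chr17:47128424-47128445, plus strand: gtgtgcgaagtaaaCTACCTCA
IGF2BP3, chr7:23351414-23351435, minus strand: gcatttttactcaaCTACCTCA
TRIM71, chr3:32933461-32933482, plus strand: acattgcttaagtcCTACCTCA

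**Figure D1:**
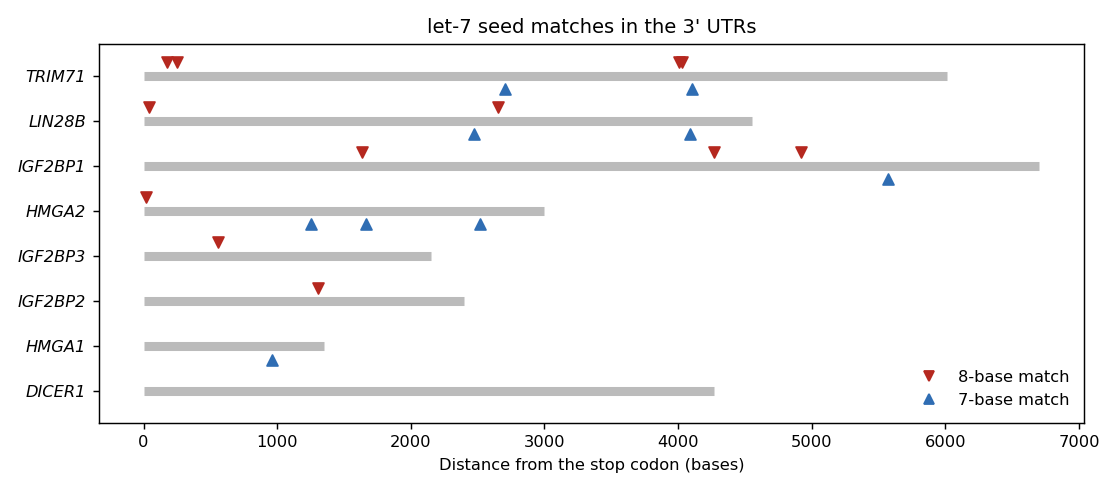
Positions of let-7 seed matches along the 3′ UTR of the 8 genes, in bases from the stop codon, with each 3′ UTR drawn as a grey bar to scale. Red triangles mark 8-base matches and blue triangles 7-base matches. TRIM71 has 6 matches, LIN28B, IGF2BP1 and HMGA2 have 4 each, and DICER1 has 0. The form TACCTCA without the C before it is not drawn.

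Libraries held 19515779 to 31620821 counted reads, and 15415 genes passed the filter on low counts, among them 6 of the 8 genes described. The cells carried adrenergic markers in every library, PHOX2A at 836 to 1359.7 CPM, HAND2 at 677 to 885 CPM and GATA3 at 39.8 to 214 CPM, where CPM is the read count scaled to the library total. GATA3 was lower in RA than in DMSO, by 0.89 on the log2 scale, and higher in PB, by 0.79. By the rule given below, 2 of the 8 listed adrenergic markers were called higher and 1 lower with RA. With PB 4 were called higher and 0 lower, and with PB+RA 3 higher and 0 lower. Over all genes 13.3%, 28.2% and 41.9% were called with RA, PB and PB+RA. The 9 listed mesenchymal markers with a row summed to 1127 to 1388 CPM in DMSO, 1909 to 2367 CPM in RA, 955.1 to 1112 CPM in PB and 1165 to 1604 CPM in PB+RA. These sums hide opposite directions, since in PB+RA against DMSO FN1 had a log2 fold change of 1.54 and TWIST1 of -0.65. Replicates 1 and 2 stood apart from replicates 3 and 4 in all 4 groups along the third principal component, which held 10.8% of the variance. A gene was called changed when its adjusted p was below 0.05 and its log2 fold change was beyond 0.5 in either direction, by the quasi-likelihood test of edgeR. P-values were adjusted by the Benjamini-Hochberg method over the 15415 genes, and every adjusted p here is from that fit unless another is named.

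LIN28B lies on chromosome 6 (105384491 to 105531207, plus strand, GRCh37). Its level in DMSO was 126, 143, 108 and 117 CPM in replicates 1 to 4 (mean 124 ± 14.98, SD, n = 4). In RA it was 122, 137, 109 and 99.8 CPM (117 ± 16.2). In PB it was 103, 100.2, 77.0 and 84.6 CPM (91.2 ± 12.5). All 4 PB libraries lay below all 4 DMSO libraries, while the RA and DMSO libraries overlapped. In PB+RA it was 54.9, 70.7, 53.6 and 60.6 CPM (60.0 ± 7.77), and every PB+RA library lay below every library of the other 3 groups.

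LIN28B fell in PB+RA against DMSO by 1.07 ± 0.12 on the log2 scale (SE, adjusted p = 9.32e-07), that is 2.1-fold lower, and was lower in 4 of 4 replicate pairs. It also fell in PB+RA against PB, by 0.63 ± 0.12 (adjusted p = 0.000704), and in PB+RA against RA, by 0.99 ± 0.12 (adjusted p = 4.36e-06). These 3 calls held when any 1 library was left out. With PB alone the log2 fold change was -0.44 ± 0.12 (adjusted p = 0.0055), under the fold minimum, and it passed that minimum without DMSO replicate 3 (-0.52), without PB replicate 1 (-0.52) or without PB replicate 2 (-0.51). With RA alone it was -0.09 ± 0.12 (adjusted p = 0.611), with an interval of 2 SE from -0.32 to 0.15.

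HMGA1 encodes an AT-hook protein that binds the minor groove of DNA and shapes chromatin, and lies on chromosome 6 (34204650 to 34214008, plus strand). Its level in DMSO was 608, 634, 549.5 and 561 CPM (588 ± 39.9). In RA it was 492, 574, 431 and 424 CPM (480.3 ± 69.8), with 1 library inside the DMSO range. In PB it was 283, 324, 309.8 and 307 CPM (306 ± 17.0), and in PB+RA it was 203, 209.7, 183 and 172 CPM (192 ± 17.4). The PB, PB+RA and DMSO libraries formed 3 ranges that did not overlap.

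HMGA1 showed the largest fold change of the 6 tested genes in PB and in PB+RA against DMSO. It fell by 0.94 ± 0.092 on the log2 scale in PB (adjusted p = 3.34e-07) and by 1.64 ± 0.094 in PB+RA (adjusted p = 2.05e-10), that is 3.12-fold lower. It fell in PB+RA against PB by 0.70 ± 0.092 (adjusted p = 2.15e-05) and in PB+RA against RA by 1.34 ± 0.093 (adjusted p = 5.23e-09). With RA alone the log2 fold change was -0.30 ± 0.091 (adjusted p = 0.017), lower in 4 of 4 pairs and under the fold minimum, and without DMSO replicate 2 its adjusted p was 0.0521. The pseudogene HMGA1P3, with 0.902% as many reads as HMGA1, had a log2 fold change of -1.40 in PB+RA (adjusted p = 5.57e-08), and how reads were split between the 2 copies was not tested.

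IGF2BP1 encodes an oncofetal protein that binds and stabilises mRNAs, MYC and IGF2 mRNA among them, and lies on chromosome 17 (47074747 to 47133507, plus strand). Its level in DMSO was 192, 198, 134 and 147 CPM (168 ± 32.2), with replicates 1 and 2 above replicates 3 and 4. In RA it was 208, 209.4, 164 and 159.6 CPM (185 ± 27.1). In PB it was 139.7, 135, 97.1 and 112 CPM (121 ± 19.99), and in PB+RA 108, 123, 91.4 and 105 CPM (107 ± 13.1). The same split of the replicates recurred in RA, PB and PB+RA, and within each replicate number PB and PB+RA lay below DMSO.

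IGF2BP1 fell in PB+RA against DMSO by 0.68 ± 0.15 on the log2 scale (adjusted p = 0.000853) and in PB+RA against RA by 0.81 ± 0.15 (adjusted p = 0.000261). In PB+RA against PB its log2 fold change was -0.21 ± 0.15 (adjusted p = 0.297), not called, and it was lower in 4 of 4 pairs. With the replicate number as a block in edgeR's quasi-likelihood test it was -0.20 (adjusted p = 0.00293), under the fold minimum. With PB alone it was -0.47 ± 0.15 (adjusted p = 0.014), under the fold minimum, which it passed without DMSO replicate 3 (-0.59), without DMSO replicate 4 (-0.53), without PB replicate 1 (-0.56) or without PB replicate 2 (-0.56). With RA alone the log2 fold change was 0.14 ± 0.15 (adjusted p = 0.504), and it was -0.04 with an offset for GC content and gene length.

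**Figure D2:**
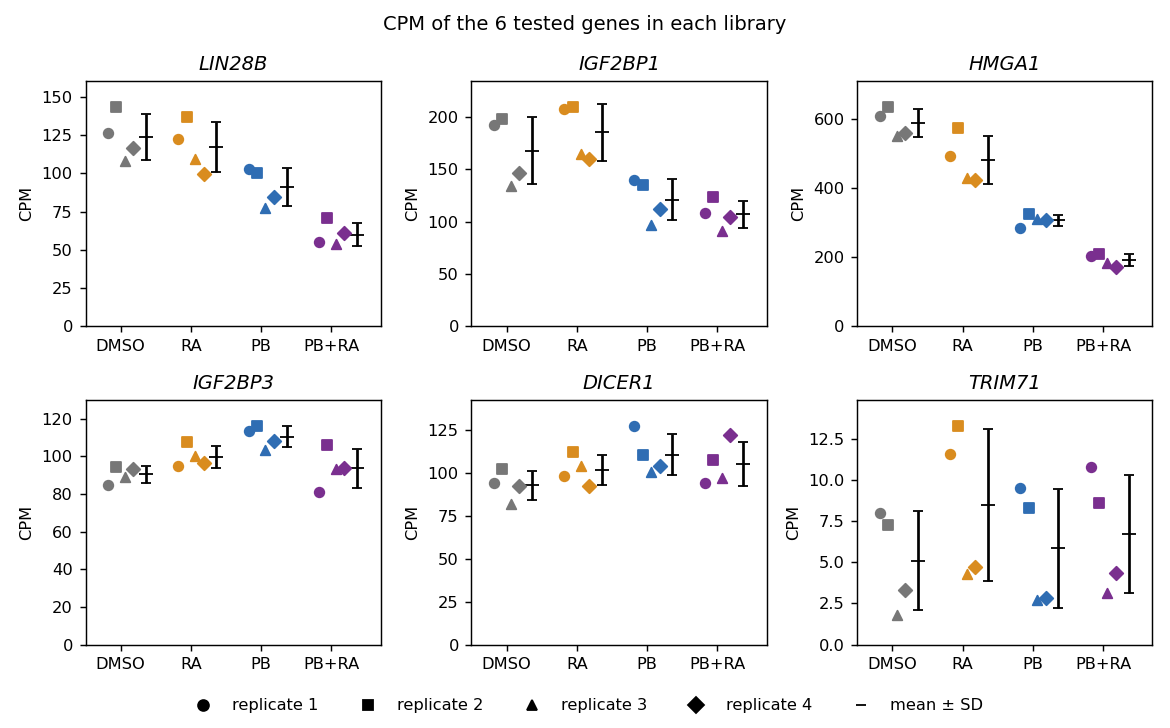
Levels in CPM of the 6 tested genes in each of the 16 libraries, by group, on axes that start at 0. Symbols mark the replicate number, and the black bar beside each group is the mean ± SD of 4 libraries. LIN28B and HMGA1 are lowest in PB+RA, with means of 60.0 and 192 CPM against 124 and 588 CPM in DMSO, while IGF2BP3 and DICER1 stay between 81.2 and 127 CPM.

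Over the 4 groups the order of mean levels was DMSO, RA, PB and PB+RA for LIN28B and HMGA1, and RA, DMSO, PB and PB+RA for IGF2BP1. RA and DMSO were neighbours whose difference was not called for any of the 3. Between RA and PB, a comparison added after the data were seen in which 26.0% of the 15415 genes were called, HMGA1 was lower in PB by 0.64 ± 0.092 on the log2 scale (adjusted p = 2.57e-05) and IGF2BP1 by 0.61 ± 0.15 (adjusted p = 0.00302). The LIN28B log2 fold change between these neighbours was -0.35 ± 0.12 (adjusted p = 0.0211), under the fold minimum.

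IGF2BP3, the second IGF2 mRNA-binding gene with a substantial level, lies on chromosome 7 (23349828 to 23510110, minus strand). In DMSO it stood at 84.7, 94.3, 89.2 and 93.5 CPM (90.4 ± 4.42), and in PB at 113, 116, 104 and 108 CPM (110.4 ± 5.61). All 4 PB libraries lay above all 4 DMSO libraries, the opposite order to IGF2BP1. In RA it stood at 94.7, 108, 100.3 and 96.5 CPM (99.9 ± 5.81) and in PB+RA at 81.2, 106, 93.1 and 93.9 CPM (93.6 ± 10.1), the last overlapping DMSO. The RA libraries also lay above all 4 DMSO libraries, the lowest at 94.7 CPM against a DMSO maximum of 94.3 CPM.

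For IGF2BP3 the log2 fold change with PB was 0.29 ± 0.069 (adjusted p = 0.00201), under the fold minimum. With RA it was 0.13 ± 0.069 (adjusted p = 0.139), not called. With the replicate number as a block in edgeR's quasi-likelihood test the RA value was 0.13 (adjusted p = 0.026), under the fold minimum. In PB+RA against PB it was -0.27 ± 0.069 (adjusted p = 0.00595), lower in 4 of 4 pairs. In PB+RA against DMSO it was 0.02 ± 0.069 (adjusted p = 0.799), with an interval of 2 SE from -0.12 to 0.16. IGF2BP3 shares 1521 exonic bases with MALSU1 on the opposite strand, which had 386 to 946 reads a library and fell with PB by 0.51 on the log2 scale (adjusted p = 5.44e-06). The libraries were directional but the strand setting of the counting is not given in the sources used here, so reads of the 2 genes may be mixed.

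IGF2BP2 lies on chromosome 3 (185360918 to 185542830, minus strand) and did not pass the filter on low counts. It had 7, 5, 2 and 1 reads in the DMSO libraries and 3, 10, 13 and 7 in RA. It had 5, 3, 5 and 6 reads in PB and 9, 6, 9 and 5 in PB+RA. In read counts the groups overlapped. In CPM the lowest PB+RA library (0.256) lay just above the highest DMSO library (0.248), while RA and PB overlapped DMSO. In a fit with no filter the adjusted p of IGF2BP2 was 0.459 for PB, 0.1 for RA and 0.0951 for PB+RA against DMSO. Per kilobase of exon, with the exons of all transcripts of a gene merged, the mean levels in DMSO were 17.4 CPM for IGF2BP1, 10.6 CPM for IGF2BP3 and 0.026 CPM for IGF2BP2. The merged length was 9631 bases for IGF2BP1 and 8535 for IGF2BP3. In the MANE Select transcripts the 3′ UTR and coding sequence were 6701 and 1731 bases for IGF2BP1, but 2153 and 1737 for IGF2BP3. The order of IGF2BP1 and IGF2BP3 therefore depends on the length taken, and only the low level of IGF2BP2 stands apart.

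HMGA2 lies on chromosome 12 (66218240 to 66360071, plus strand), and its protein binds DNA through AT-hooks as HMGA1 does. It had 0 reads in all 4 DMSO libraries and in all 4 PB libraries, where a count of 0 allows a level of up to 0.0949 to 0.154 CPM over the 16 libraries. It had 4 reads over the RA libraries and 1 over the PB+RA libraries. No difference was detectable at this depth. The HMGA1 level per kilobase of exon was 253 CPM in DMSO and 82.6 CPM in PB+RA. LIN28A, the LIN28 paralogue that also blocks let-7 maturation, had at most 2 reads in any library. LIN28B was therefore the LIN28 gene with a measurable level, at 20.8 CPM per kilobase of exon in DMSO and 10.1 in PB+RA.

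DICER1, the ribonuclease that cuts microRNA precursors to their mature form, lies on chromosome 14 (95552565 to 95624347, minus strand). It stood at 93.9, 102, 82.1 and 92.4 CPM in DMSO (92.6 ± 8.27) and at 127, 110.2, 100.6 and 104 CPM in PB (110.4 ± 11.9). In RA it stood at 98.005, 112, 104 and 92.2 CPM (102 ± 8.57) and in PB+RA at 94.1, 108, 96.8 and 122 CPM (105 ± 12.7). Each of the 3 treated groups overlapped DMSO. The log2 fold change with PB was 0.25 ± 0.091 (adjusted p = 0.026), under the fold minimum, and its adjusted p was up to 0.157 with 1 library left out. With RA it was 0.13 ± 0.091 (adjusted p = 0.303), and the value for PB+RA was 0.15 ± 0.091 (adjusted p = 0.146).

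TRIM71, a ubiquitin ligase and mRNA repressor of stem and progenitor cells, lies on chromosome 3 (32859489 to 32939316, plus strand) and was low. In DMSO it stood at 8.01, 7.26, 1.80 and 3.33 CPM (5.10 ± 3.01) and in RA at 11.6, 13.3, 4.30 and 4.73 CPM (8.48 ± 4.64). In PB it stood at 9.52, 8.32, 2.71 and 2.81 CPM (5.84 ± 3.59) and in PB+RA at 10.8, 8.59, 3.11 and 4.36 CPM (6.71 ± 3.58). In every group replicates 1 and 2 lay above replicates 3 and 4.

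Over the 4 groups TRIM71 averaged 9.67 CPM in replicates 1 and 2 (7.26 to 13.3) and 3.39 CPM in replicates 3 and 4 (1.80 to 4.73), a ratio of 2.85, and the 2 sets did not overlap over all 16 libraries. Of the 15415 genes tested, 185 (1.2%) had sets that did not overlap. The matching ratios were 1.30 for IGF2BP1, 1.21 for LIN28B, 1.13 for HMGA1, 1.07 for DICER1 and 1.03 for IGF2BP3, all with overlap. What distinguished the 2 sets of replicates is not given in the sources used here.

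The TRIM71 level was higher in RA than in DMSO within each replicate number, by 0.53, 0.85, 1.20 and 0.50 on the log2 scale in replicates 1 to 4. In the fit by group alone the log2 fold change was 0.73 ± 0.57 (adjusted p = 0.343), not called. With the replicate number as a block in edgeR's quasi-likelihood test it was 0.76 (adjusted p = 2.38e-05) and was called. Within replicates 1 and 2 alone it was 0.70 (adjusted p = 0.00737), and within replicates 3 and 4 alone 0.78 (adjusted p = 0.0151). With PB the log2 fold change was 0.20 ± 0.58 (adjusted p = 0.789) by group and 0.19 (adjusted p = 0.182) with the block, and with PB+RA it was 0.38 ± 0.57 (adjusted p = 0.575) and 0.40 (adjusted p = 0.00633).

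**Figure D3:**
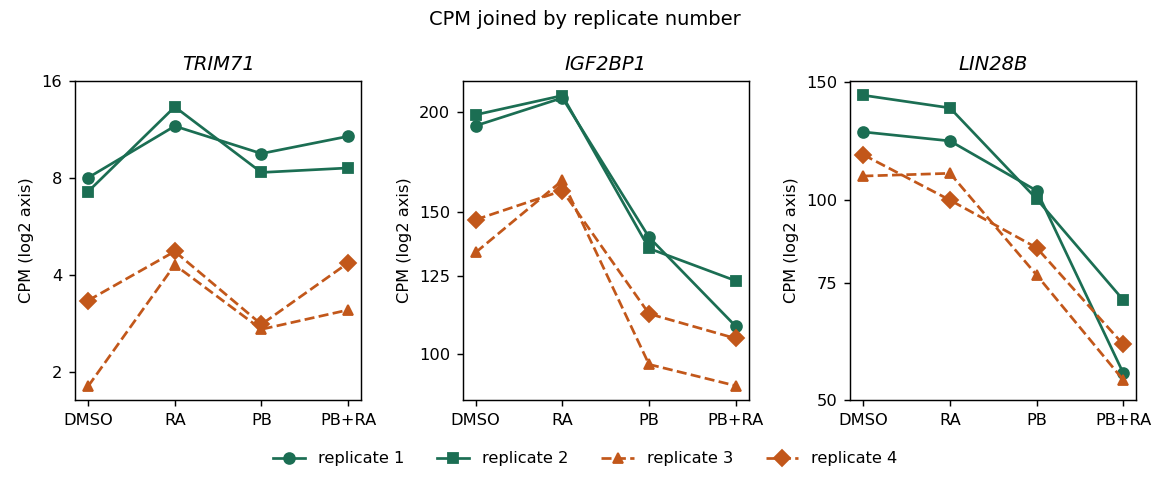
Levels in CPM of TRIM71, IGF2BP1 and LIN28B on log2 axes, with the 4 libraries of each replicate number joined across groups. Replicates 1 and 2 are solid green and replicates 3 and 4 dashed orange. The TRIM71 lines of the 2 sets are apart in every group, by 2.85 times over all libraries, and each line is higher in RA than in DMSO.

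Against the share of all genes called, the count of the 8 genes was read as follows. With PB, 1 of the 6 tested was called, lower, where 28.2% of all tested genes were called and 11.3% were called lower. With RA 0 of 6 were called, where 13.3% of all genes were, and 1 of 6 (HMGA1) had an adjusted p below 0.05, where 35.2% of all genes did. In that comparison 2.54% of all genes were called lower. With PB+RA 3 of 6 were called, all lower (LIN28B, HMGA1 and IGF2BP1), where 41.9% of all genes were called and 17.9% were called lower. In PB+RA against PB 2 of 6 fell, where 16.3% of all genes were called and 7.27% were called lower, and in PB+RA against RA 3 of 6 fell, where 29.0% were called and 14.1% were called lower. With no fold minimum, 5 of 6 had an adjusted p below 0.05 with PB (53.6% of all genes), 3 with PB+RA (66.1%), 3 in PB+RA against PB (38.1%) and 3 in PB+RA against RA (54.4%). The median log2 fold change of the 6 genes was -0.12 with PB, 0.13 with RA and -0.33 with PB+RA, beside 0.03, 0.01 and 0.04 over all genes. The 3 comparisons with DMSO share the same 4 control libraries.

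**Figure D4:**
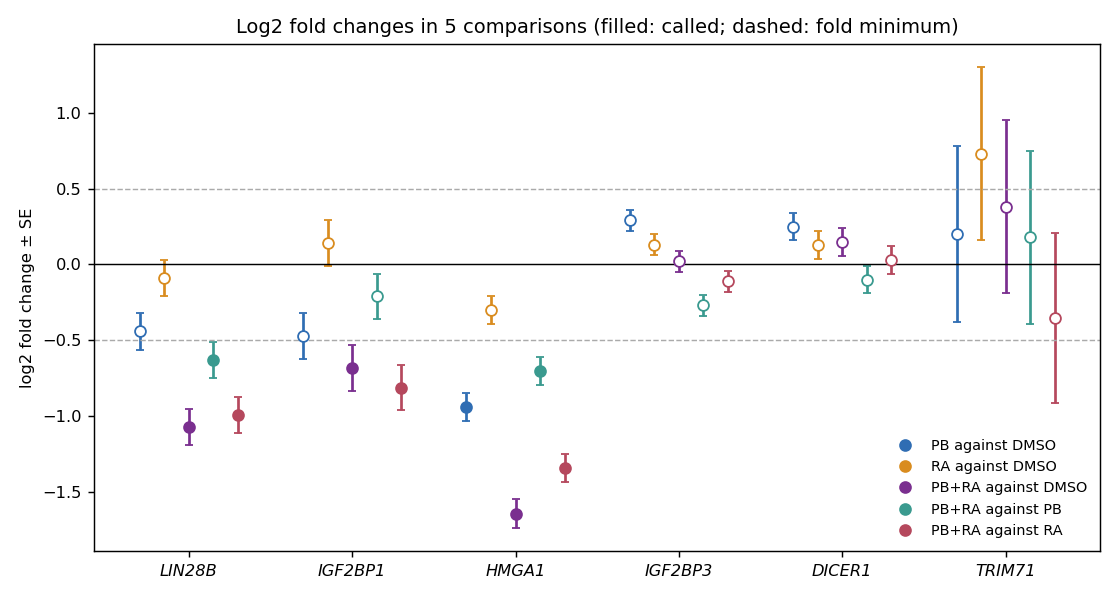
Log2 fold changes of the 6 tested genes in 5 comparisons, with bars of 1 SE either side. Filled points passed an adjusted p of 0.05 and the fold minimum of 0.5, drawn as dashed lines. LIN28B and HMGA1 are called lower in all 3 comparisons of PB+RA, with HMGA1 at -1.64 and LIN28B at -1.07 against DMSO, and the wide bars of TRIM71 span 0.5 or more either side.

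Whether PB acted differently in the presence of RA was tested as an interaction, the log2 fold change of PB with RA minus that of PB without RA. It was -0.55 ± 0.17 for LIN28B (adjusted p = 0.0752), -0.40 ± 0.13 for HMGA1 (adjusted p = 0.0901) and -0.40 ± 0.097 for IGF2BP3 (adjusted p = 0.0225), and 0 of the 6 genes were called, where 3.44% of all genes were and 3.02% were called lower. With no fold minimum 1 of 6 passed (IGF2BP3), where 5.29% of all genes did. With IGF2BP1 the value was -0.34 (adjusted p = 0.435), with DICER1 -0.23 (adjusted p = 0.391) and with TRIM71 -0.55 (adjusted p = 0.799). With the replicate number as a block in the same test, the LIN28B value was -0.55 (adjusted p = 9.38e-05) and the TRIM71 value -0.55 (adjusted p = 0.0308), and both were called. Without the block LIN28B passed the threshold when DMSO replicate 2 (-0.62, adjusted p = 0.0483) or PB+RA replicate 2 (-0.63, adjusted p = 0.0423) was left out.

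The levels of LIN28B and HMGA1 followed each other over the 16 libraries, with a Pearson's r of 0.94 on log2 CPM, and LIN28B and IGF2BP1 had an r of 0.90. The r of IGF2BP3 with DICER1 was 0.64, and that of LIN28B with IGF2BP3 0.21. These are descriptions, since the libraries share 4 treatments. The search for genes of like pattern took in the 10001 genes that averaged 10 CPM or more. By r over the 16 libraries, CNTNAP2 (0.977) and XPO4 (0.974) were among those most like LIN28B. Those most like HMGA1 were DAZAP1 (0.994), SNRPA (0.993) and KHSRP (0.993), and those most like IGF2BP1 were GRPEL2 (0.945), UBE2D2 (0.943) and MACROH2A1 (0.943).

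Of 12 listed genes of microRNA processing and silencing, 1 fell with PB, 0 were called with RA, and 2 fell and 1 rose with PB+RA. Of all genes, 28.2%, 13.3% and 41.9% were called in these comparisons. The median log2 fold change of the 12 with PB+RA was -0.22. PRKRA, a partner protein of Dicer, fell by 1.01 ± 0.11 in PB+RA (adjusted p = 6.71e-07) and by 0.90 ± 0.11 in PB (adjusted p = 4.61e-06). AGO2, the Argonaute that cleaves targets, fell by 0.63 ± 0.085 in PB+RA (adjusted p = 5.06e-06). AGO1 rose by 0.52 ± 0.05 (adjusted p = 1.24e-07), close to the fold minimum, and was under it without DMSO replicate 3 (0.48), without PB+RA replicate 1 (0.46) or without PB+RA replicate 2 (0.48). With the GC and length offset AGO1 was at 0.26, and it also missed the minimum with RLE factors, with no filter, with DESeq2, with only the compared groups and in replicates 3 and 4 alone.

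Of 7 tested genes that act on let-7 precursors, 1 fell with PB, 0 were called with RA and 3 fell with PB+RA. The shares of all genes called in these comparisons were 28.2%, 13.3% and 41.9%. Some of the 7 passed the adjusted p with RA but not the fold minimum. Of these only KHSRP was lower (-0.15, adjusted p = 0.0248), and the others were higher, by 0.14 to 0.36. The median log2 fold change of the 7 was -0.03 with RA and -0.04 with PB+RA. TRIM25, a cofactor of LIN28-directed uridylation, fell by 0.69 ± 0.12 in PB+RA (adjusted p = 0.000111). KHSRP, which binds the terminal loop of let-7 precursors and promotes their processing, fell by 0.69 ± 0.049 (adjusted p = 3.01e-09), and HNRNPA1, known to counter KHSRP on let-7a, fell by 0.58 ± 0.043 (adjusted p = 5.58e-09).

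Mature let-7 was not measured by these polyA libraries. Of 19 listed let-7 genes and host transcripts, 12 had a row and 6 were tested. MIR99AHG, the host of let-7c, stood at 9.01, 8.19, 9.42 and 8.90 CPM in DMSO and at 18.1, 23.1, 19.03 and 15.8 CPM in RA, without overlap. It rose by 1.09 ± 0.12 on the log2 scale with RA (adjusted p = 4.41e-06), and its rise in PB+RA was 0.98 ± 0.12 (adjusted p = 1.45e-06). The other 5 tested were not called in either, where 13.3% of all genes were called with RA and 41.9% with PB+RA.

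Of 21 tested other let-7 targets, 8 fell and 3 rose with PB, 2 rose with RA, and 9 fell and 3 rose with PB+RA. Among all genes 28.2%, 13.3% and 41.9% were called in these comparisons. The median log2 fold change of the 21 in PB+RA was -0.16. E2F2, a cell-cycle transcription factor, fell by 3.50 ± 0.10 in PB+RA (adjusted p = 3.98e-13), RRM2, a subunit of ribonucleotide reductase, by 2.80 ± 0.20 (adjusted p = 1.09e-08) and CDC25A, a phosphatase that activates cyclin-dependent kinases, by 2.03 ± 0.11 (adjusted p = 1.49e-10). MYC, also a let-7 target, rose by 2.06 ± 0.20 (adjusted p = 9.91e-08). E2F2, RRM2 and CDC25A are also cell-cycle genes.

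The 5 proliferation markers are given beside the 3 genes called lower with PB+RA, LIN28B, HMGA1 and IGF2BP1. All 5 fell with PB and PB+RA, where 11.3% and 17.9% of all genes were called lower. With RA 0 of 5 were called, where 13.3% of all genes were called and 2.54% were called lower. Some of the 5 passed the adjusted p with RA under the fold minimum, CCNB1 among them (-0.40, adjusted p = 9.86e-05). The summed level of the 5 markers was 2023 to 2080 CPM in DMSO, 1610.4 to 1769 CPM in RA, 808 to 992 CPM in PB and 366 to 526 CPM in PB+RA. MKI67 fell by 2.88 ± 0.16 in PB+RA (adjusted p = 3.06e-10). The part of these markers in the falls of the 3 genes was not tested. In RNA from whole cultures, fewer cells that express a gene and less RNA of it per cell cannot be told apart.

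Most genes of the other high mobility group chromatin proteins fell with PB and with PB+RA. Of 8 tested, 5 fell with PB, 2 with RA and 7 with PB+RA, and 0 rose in any of these. Over all genes, 11.3%, 2.54% and 17.9% were called lower in the same comparisons. The median log2 fold change of the 8 was -0.88 with PB and -1.08 with PB+RA. HMGN4 was not called in any of the 3, with 0.05 in PB+RA. HMGB2 stood at 399, 368, 475 and 429.8 CPM in DMSO and at 42.9, 39.5, 73.3 and 69.4 CPM in PB+RA, a fall of 2.92 ± 0.20 on the log2 scale (adjusted p = 5.21e-09). HMGN2 fell by 2.20 ± 0.16 in PB+RA (adjusted p = 7.82e-09), HMGB1 by 1.34 ± 0.075 (adjusted p = 1.46e-10) and HMGN5 by 1.28 ± 0.15 (adjusted p = 1.41e-06). HMGB2 fell with RA by 0.53 ± 0.18 (adjusted p = 0.0354) and was not called there without DMSO replicate 3 (adjusted p = 0.0759), DMSO replicate 4 (0.0657), RA replicate 2 (0.0732) or RA replicate 4 (0.0589).

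LIN28B has been linked in neuroblastoma to RAN, the GTPase of nuclear transport, and through it to the mitotic kinase AURKA. Of 4 genes listed for this axis, 2 fell with PB, 0 were called with RA and 3 fell with PB+RA. Over all genes, 28.2%, 13.3% and 41.9% were called in these comparisons. With RA, AURKA (-0.49, adjusted p = 0.000172), TPX2 (-0.33, adjusted p = 0.000442) and RAN (-0.29, adjusted p = 0.000114) were lower but under the fold minimum. The other listed gene was at 0.01 with RA (adjusted p = 0.968). AURKA fell by 2.15 ± 0.083 in PB+RA (adjusted p = 2.71e-12), its activator TPX2 by 1.95 ± 0.060 (adjusted p = 4.54e-13) and RAN by 0.73 ± 0.044 (adjusted p = 4.13e-10). AURKA and TPX2 are also mitotic genes.

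Of 7 tested oncofetal and imprinted growth genes, 1 rose with PB, 1 rose with RA, and 2 rose and 1 fell with PB+RA. For all genes the shares called were 28.2%, 13.3% and 41.9%. IGF2, whose mRNA the IGF2BP proteins bind, stood at 187, 177, 103 and 151 CPM in DMSO and at 319, 385, 273 and 260.4 CPM in RA, with all RA libraries above all DMSO libraries. It rose by 0.99 ± 0.21 with RA (adjusted p = 0.00204). Its rise in PB+RA was 0.62 ± 0.21 (adjusted p = 0.0162), and that call was lost without DMSO replicate 3 (adjusted p = 0.0527), PB+RA replicate 1 (0.0555) or PB+RA replicate 2 (0.072). With the GC and length offset the IGF2 value in PB+RA was 0.36 (adjusted p = 0.105), and the call was also lost with no filter (adjusted p = 0.0545) and in replicates 3 and 4 alone (adjusted p = 0.0533). PEG10 fell by 1.29 ± 0.075 in PB+RA (adjusted p = 2.47e-10) and BEX1 rose by 0.63 ± 0.068 (adjusted p = 4.56e-07).

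MYCN is amplified in this line, and LIN28B is known to raise its protein, which was not measured here. The RNA of MYCN did not fall with that of LIN28B. Its level was 2618, 3304, 3113 and 2752 CPM in DMSO and 5352, 6337, 5159 and 5081 CPM in PB, without overlap, a rise of 0.90 ± 0.13 on the log2 scale (adjusted p = 3.59e-05). In PB+RA it was 4862, 5451, 3867 and 3670.2 CPM, a rise of 0.57 ± 0.13 (adjusted p = 0.00127) that was under the fold minimum without PB+RA replicate 1 (0.49) or PB+RA replicate 2 (0.43). It was also under that minimum in replicates 3 and 4 alone (0.29) and with the GC and length offset (0.47). In RA its log2 fold change was -0.17 ± 0.13 (adjusted p = 0.336).

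**Figure D5:**
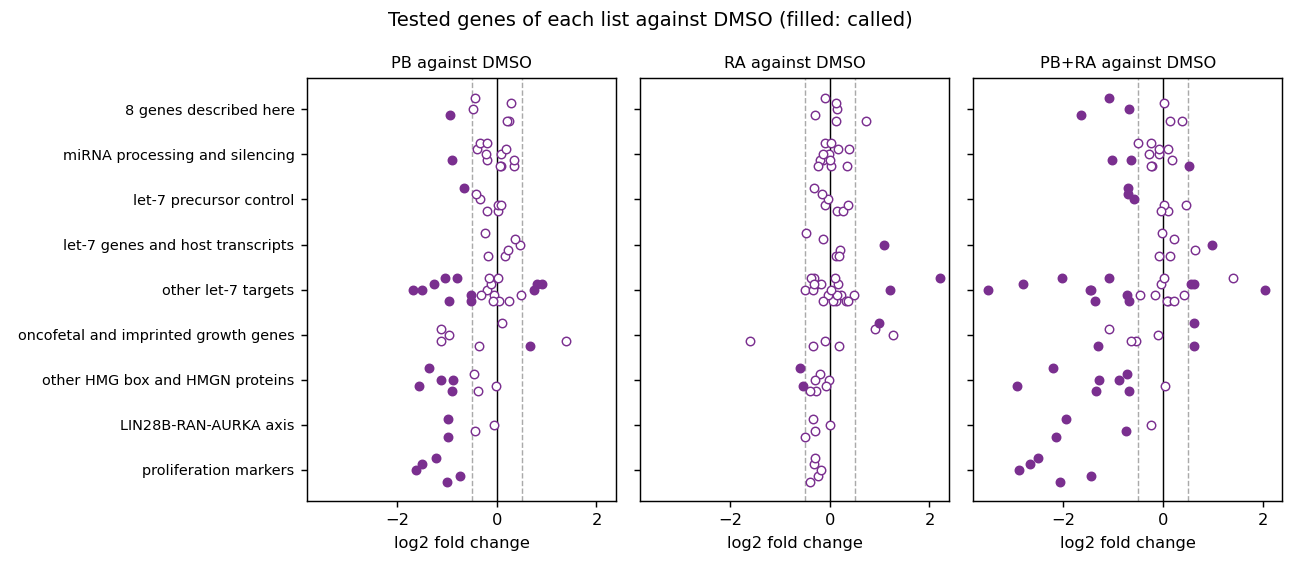
Log2 fold changes against DMSO of the tested genes among the 8 described and in 8 lists, 1 point a gene, in PB, RA and PB+RA. Filled points were called, dashed lines mark the fold minimum of 0.5, and the height within a row carries no value. The high mobility group and proliferation lists lie left of 0 in PB+RA except for HMGN4, which was not called (0.05), with a median of -1.08 for the first, while the list of microRNA processing has a median of -0.22.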

How the data were processed

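RNA was polyA selected, made into directional libraries and sequenced as 50-base pairs by the authors. Per the labels' processing notes, reads were trimmed with Trim Galore 0.6.4 and aligned to hg19 with STAR 2.6.1d, which also counted them. The paper's list of software names another release of STAR. The authors deposited raw counts per gene and CPM, counts scaled to the library total, without pooling replicates. The gene annotation and the strand column used were not given in the sources used here. A deposited table of the authors' own DESeq2 1.32.0 fold changes and p-values was not used.

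Groups came from the labels. The deposited counts were fitted with edgeR 4.0.16 in R 4.3.3 (filterByExpr, TMM factors of 0.983 to 1.02, robust quasi-likelihood, 1 model over all 16 libraries, Benjamini-Hochberg adjustment). Library totals of 19515779 to 31620821 make a count of 0 compatible with up to 0.0949 to 0.154 CPM (3 counts), which covers counting error only. Alternatives were RLE factors, no filter, at least 1 CPM, DESeq2 1.42.0, limma-voom 3.58.1, other fold minimums, a replicate block, a GC and length offset (values for 95.2% of tested genes), only the compared groups, each library left out, and replicates 1 and 2 or 3 and 4 alone. Libraries with the same replicate number deviated together from their group means (24 pairs, r of 0.33 to 0.573). Libraries of different numbers were not compared in this way. Pairing by number therefore cannot be told apart from the split of replicates 1 and 2 from replicates 3 and 4. Pairs given here join libraries of the same number. The fit reported used the group alone, with the replicate block as an alternative. P-values measure the spread between these libraries of 1 line.

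Positions and 3′ UTRs came from GENCODE v44 lifted to GRCh37. MicroRNA sequences came from RefSeq (GRCh38.p14). The 8 genes and the gene lists were chosen with earlier results of these data known. The 8 genes were named throughout, with LIN28A, IGF2 and MYCN. From each list, genes were named among the up to 4 called with the largest change in PB+RA against DMSO, and not all of these are given. PHOX2A, HAND2, GATA3 and HMGN4 were named outside this rule. The contrast of PB with RA was added after the data were seen. Some listed genes and genes of like pattern are not reported here.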

Additional observations from a re-analysis of the deposited data

Results flagged for a closer look

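None of the 6 tested genes of the 8 had a library apart from its group or a called difference in the PB effect between cells with and without RA in the fit by group. Among 41 named genes and 152 sets of 4 libraries with a mean of at least 1 CPM, which left out HMGA2 and IGF2BP2, 5 held 1 library whose gap to its nearest neighbour exceeded Dixon's 95% critical value for 4 libraries, where chance alone flags about 1 set in 20. These were AGO2 in RA replicate 1 (70.2 CPM, nearest 79.5), MYC in PB+RA replicate 2 (10.8 CPM, nearest 9.13), CCNB1 in PB replicate 4 (150.3 CPM, nearest 131), MYCN in RA replicate 2 (3219 CPM, nearest 2476) and SNAI2 in RA replicate 2 (10.1 CPM, nearest 17.5).

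The effect of PB was different with RA than without it, by the interaction term of edgeR's quasi-likelihood test, for 10 named genes. All 10 had a lower log2 fold change of PB in the presence of RA. Over all tested genes 530 (3.44%) were called for this term, and 466 of these were lower. Most genes were named by the size of their change in PB+RA against DMSO, which enters this term. The differences were -1.50 for E2F2, -1.23 for RRM2, -1.11 for MKI67, -0.86 for PCNA, -0.68 for CDC25A, -0.68 for AURKA, -0.66 for CCNB1, -0.65 for TPX2, -0.62 for PEG10 and -0.58 for MIR99AHG. The MIR99AHG call had an adjusted p of 0.0485 and was lost without any 1 library other than PB replicate 3 or RA replicate 4, with -0.60 to -0.47 on the log2 scale in the fits that lost it. It was -0.38 with the GC and length offset and -0.17 in replicates 3 and 4 alone. The CDC25A call was lost without DMSO replicate 3 (adjusted p = 0.0545) or PB replicate 1 (0.0541), and the PCNA call without DMSO replicate 1 (0.0601). With no filter the calls of RRM2 (0.0685) and PCNA (0.0847) were lost, and in replicates 3 and 4 alone those of PEG10 (0.0898) and MKI67 (0.0927).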

How the results depend on the processing

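The counts of the 8 genes called moved with the fold minimum and the replicate block. With PB, 1 was called in the fit reported, 5 with no fold minimum, 0 with a log2 minimum of 1, and 2 with no filter, with the GC and length offset, with that offset and the replicate block, and in replicates 1 and 2 alone or replicates 3 and 4 alone. With RA, 0 became 1 with no fold minimum (HMGA1), and 1 (TRIM71) with the replicate block, with the block and offset, and in replicates 1 and 2 or 3 and 4 alone. With a log2 minimum of 1, PB+RA against PB had 0 and against RA 1. For the interaction, 0 became 1 with no fold minimum (IGF2BP3), 1 with DESeq2 (LIN28B) and 2 with the replicate block (LIN28B and TRIM71). Leaving out 1 library gave 1 to 3 for PB and 0 to 1 for the interaction. The block changed no other call of the 8 genes.

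Over all genes, PB, RA, PB+RA, PB+RA against PB, PB+RA against RA and the interaction had 8269, 5420, 10189, 5877, 8391 and 816 calls with no fold minimum, and 1686, 914, 3120, 1058, 1776 and 169 with a log2 minimum of 1, against 4352, 2053, 6455, 2511, 4469 and 530 as reported. The interaction had 1171 calls with the replicate block, 1038 with block and offset, and 342 to 515 with 1 library left out. The share of rises among calls went from 59.9% to 49.4% (PB), from 80.9% to 61.9% (RA) and from 12.1% to 25.1% (interaction) with the GC and length offset. In replicates 3 and 4 alone it was 70.9% for RA and 27.4% for the interaction.

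Of 798 alternative values for the 6 tested genes, 24 had the other sign, none of them called. With the offset, with or without the block, RA gave -0.04 for IGF2BP1, -0.01 for IGF2BP3 and -0.02 for DICER1, and PB+RA gave -0.13 for IGF2BP3. That last value was also -0.01 with no filter, -0.00 with DESeq2, -0.03 in replicates 3 and 4 alone and -0.07 to 0.05 with 1 library left out. In PB+RA against PB, DICER1 was 0.07 in replicates 3 and 4 alone, and TRIM71 was -0.16 to 0.53 with 1 library left out. In PB+RA against RA, DICER1 was -0.08 in replicates 1 and 2 alone and -0.03 to 0.06 with 1 library left out. TRIM71 with PB was -0.16 to 0.49 with 1 library left out. The causes were not tested. Of the alternative values for 111 calls of listed genes, 2247 kept the call, 154 lost it and 0 changed sign. HMGA2 and IGF2BP2 were limited by depth.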
